A study of Rattus norvegicus with 6 samples.

Results

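The genes described here are 40 symbols of the interferon system: the receptors for type I and type II interferon, the transcription factors and RNA sensors of the pathway, and the antiviral genes it induces. They were chosen by name, with earlier results of these data known. Their values come from RNA sequencing of vascular smooth muscle cells, which make up the muscular layer of arteries, in primary culture from the rat. Ddx58 and Rigi name the same gene. The files have a row for 37 of the symbols, of 30945 genes in all; Rigi, Ifit1 and Oas1b have no row under those names and were not analysed here. Of the 37, 24 passed the filter on low counts and were tested, and 13 did not. The study has 3 libraries from cells labelled Negative_control and 3 from cells labelled siRNA_ANK, which the series title describes as deficient in ANK. Both groups carry the same labels for cell type and source, and the labels give no strain, age, siRNA dose or time after treatment. Nor do they tell if each replicate was its own animal or its own culture; every p-value below therefore weighs a difference against the spread of these libraries alone, which may be technical.

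Cells detect foreign RNA with helicases such as RIG-I and MDA5, which signal through the kinase TBK1 to the transcription factors IRF3 and IRF7 and switch on interferon genes. Secreted type I interferon binds the receptor made of IFNAR1 and IFNAR2, and interferon gamma binds IFNGR1 and IFNGR2. Janus kinases then activate STAT proteins, which together with IRF9 bind the interferon-stimulated response element in the promoters of antiviral genes. Vascular smooth muscle cells carry receptors for both kinds of interferon, and interferon gamma from immune cells is known to act on them in diseased arteries.

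Library totals ranged from 15641259 to 17441548 counts. A library with 0 counts of a gene still allows up to 3 counts, which is 0.169 to 0.190 CPM (the CPM unit relates each count to its library's total after TMM scaling); this limit covers counting error only. Ankh, the gene of the progressive ankylosis protein, also called ANK, was at 338, 351 and 367 CPM in the control libraries and 84.9, 76.7 and 120 CPM with siRNA_ANK (log2 fold change -1.91 ± 0.16 (SE), edgeR adjusted p = 0.000180). Smooth muscle markers were present in every library, with a summed level of 2602 to 3618 CPM in the controls and 5173 to 6197 CPM in siRNA_ANK. Of these 9 markers, 8 were called higher, where 19.9% of all genes tested were. Of 12 leukocyte markers, Ptprc, Itgam, Tyrobp, Cd3e and Adgre1 had 0 counts throughout; the list summed to 24.8 to 28.1 CPM in the controls and 11.3 to 15.3 CPM in siRNA_ANK, nearly all of it Cd14, which is not confined to leukocytes. Of 8 endothelial markers, Cdh5, Kdr and Tie1 had 0 counts, and the sums were 15.2 to 20.5 and 23.9 to 27.5 CPM; Erg was called higher (4.97 ± 1.09 and 18.5 ± 2.61 CPM, SD, n = 3) and Egfl7 lower (11.3 ± 1.98 and 5.99 ± 0.625 CPM). Fibroblast markers summed to 114 to 123 CPM in the controls and 187 to 196 CPM in siRNA_ANK. Of these, 4 of 5 were called higher, against the same 19.9% of all genes. The part of these shifts in the results below was not tested, and in bulk RNA fewer expressing cells and less RNA per cell cannot be told apart.

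Of the 24 tested members, 5 rose and 1 fell in siRNA_ANK cells, or 25% called, against 40.1% of all genes tested. The antiviral gene Ifit2 rose 1.54-fold, the transcription factor genes Irf2 and Irf3 rose 1.45-fold and 1.17-fold, and the interferon gamma receptor gene Ifngr1 rose 1.24-fold. Bst2, at a low level, rose 2.14-fold, and the guanylate-binding protein gene Gbp2 fell 1.94-fold. Levels of the induced genes varied widely. Isg15, Mx1, Mx2, Oas2, Rsad2, Ifit3 and Usp18, of the 13 members below the filter, had 10 or fewer counts in each of the 6 libraries. For Isg15, which lies inside another gene, little RNA and reads not assigned to it cannot be told apart. Ifi27, Ifit2, Oasl2 and Ifi44 passed the filter, with control means of 78.4, 49.9, 7.84 and 4.62 CPM.

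Of the 24 members tested with edgeR's quasi-likelihood test, 5 were called higher and 1 lower at an adjusted p under 0.05, or 25% in all, against 40.1% of the 13016 genes tested. The share called higher was 20.8%, near the 19.9% of all genes, and the share called lower was 4.17%, where all genes gave 20.2%. One member changed at least 2-fold, which 7.15% of all genes did. The groups did not overlap for 11 members (45.8%), against 51.1% of all genes; 8 of the 11 were higher and 3 lower, which 25.7% and 25.4% of all genes were. The median log2 fold change was 0.12 for the tested members and 0.01 for all genes, and the median size of the change was 0.17 and 0.23. The number called higher was 2 without negative control replicate 1, 3 without negative control replicate 3 and 3 without siRNA_ANK replicate 1; the calls lost were of Ifngr1, Irf3 and Bst2, each in at least 2 of these 3 settings. With no filter beyond 1 count, 34 members were tested and the same 6 were called.

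Among the 18 tested members without a call, log2 fold changes lay between -0.24 and 0.36, 11 of them above 0 and 7 below. Their 95% intervals ran from -0.95 at the lowest to 0.92 at the highest, so all 18 intervals left out a 2-fold change, and 12 also left out a 1.5-fold change. A missed threshold does not show that these genes were equal in the groups. Full separation of control from siRNA_ANK values was seen in 5 of the 18. Such separation was common in this series, at 51.1% of all genes tested. That share includes called genes, so it is not a like measure for these 18 members.

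**Figure D1:**
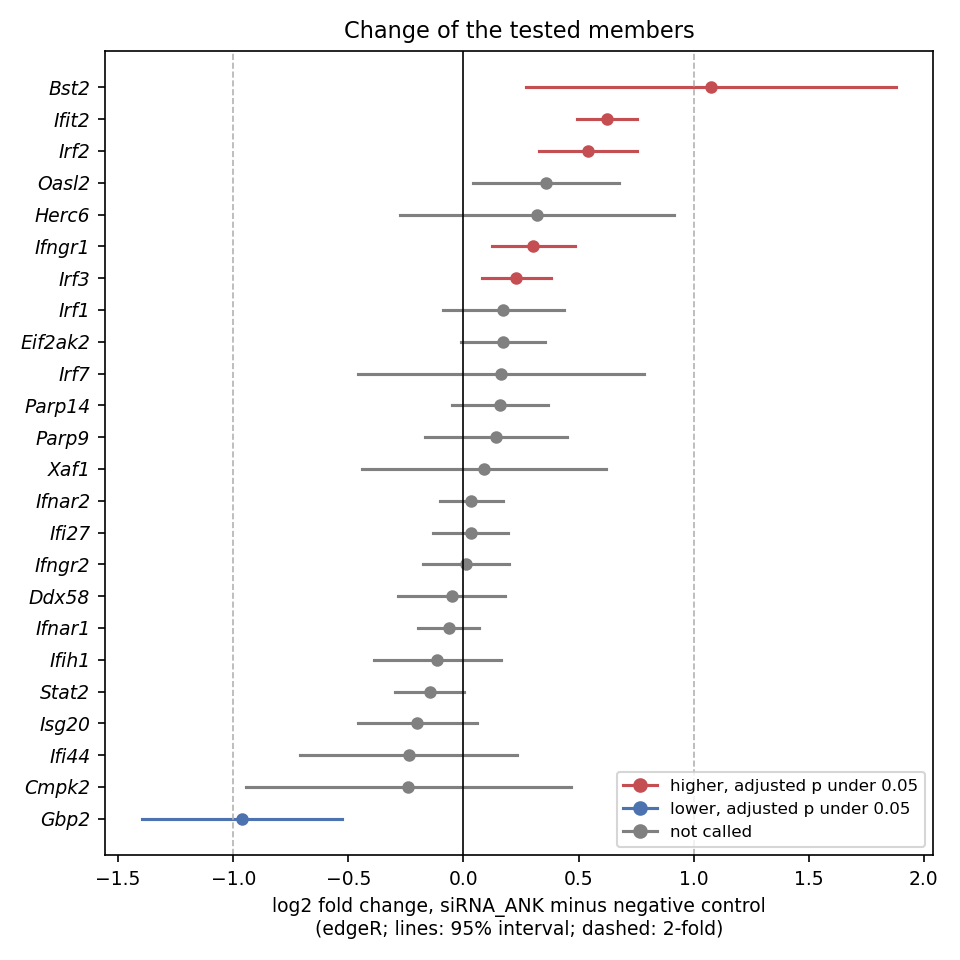
Log2 fold change (x axis, siRNA_ANK minus negative control) of the 24 tested members, with points for the edgeR estimate and lines for its 95% interval; dashed lines mark 2-fold. Red members were called higher (5), blue lower (1, Gbp2) and grey were not called (18).

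Promoter sequences were read from the RefSeq table of build GRCr8, which had an entry for 29 of the 40 symbols; the promoters of Ifit2 and Irf2 were not analysed here. In the 250 bases before the gene start, the core of the interferon-stimulated response element, GAAA and again GAAA with any 2 bases between them, on either strand, was found in 16 of 29 promoters (55.2%), against 3.41% of all 33469 promoters in the table. It was present for 2 of 4 called members with an entry (Bst2 and Gbp2, not Ifngr1 or Irf3), for 9 of 17 tested members without a call for 4 of 7 below the filter and for Oas1b, which has no row in the files. The gamma-activated site TTCNNNGAA, which reads the same on both strands, was found in 8 of 29 (27.6%), against 7.67% of all promoters. A match in letters is a description and not a site of binding. The stretches below are shown because genes that rose, fell, were not called or were nearly silent carry the same element; they are written 5′ to 3′ on the strand of the gene, end at or before the gene start, and have the matched bases in capitals, as this core or its reverse complement. Bst2 was called higher, Gbp2 lower, Isg20 and Oasl2 were not called, and Oas1a, Ifit3 and Rsad2 were below the filter; the 5 that were not called were picked for display after their values were seen.
Bst2 (chr16:18255058-18255123, minus strand): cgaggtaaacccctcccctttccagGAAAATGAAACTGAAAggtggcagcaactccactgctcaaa
Gbp2 (chr2:234005671-234005726, plus strand): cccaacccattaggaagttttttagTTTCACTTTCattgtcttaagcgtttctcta
Isg20 (chr1:142239942-142240001, plus strand): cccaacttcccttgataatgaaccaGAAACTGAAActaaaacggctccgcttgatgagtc
Oasl2 (chr12:47383302-47383361, minus strand): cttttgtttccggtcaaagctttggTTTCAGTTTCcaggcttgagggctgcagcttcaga
Oas1a (chr12:41330400-41330465, plus strand): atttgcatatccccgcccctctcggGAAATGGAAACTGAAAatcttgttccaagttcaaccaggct
Ifit3 (chr1:241527257-241527316, plus strand): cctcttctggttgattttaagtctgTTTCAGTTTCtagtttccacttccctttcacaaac
Rsad2 (chr6:48788233-48788292, minus strand): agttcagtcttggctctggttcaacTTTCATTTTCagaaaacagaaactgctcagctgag
The first base of the match nearest to the gene start lay 125 bases before it for Bst2, 31 for Gbp2, 92 for Isg20, 151 for Oasl2, 35 for Oas1a, 44 for Ifit3 and 147 for Rsad2. In Bst2 and Oas1a 2 matches overlap. These coordinates are of GRCr8 and differ from those of the count files.

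The 4 receptor genes were all well above the limit of detection. Ifngr1, the ligand-binding chain for interferon gamma (ENSRNOG00000012074, mRatBN7.2 chromosome 1, 14333187 to 14351785, plus strand), was at 82.3, 92.8 and 81.9 CPM in the control libraries and 100.3, 96.4 and 121 CPM with siRNA_ANK. All siRNA_ANK values lay above all control values, with siRNA_ANK replicate 3 the highest. The means were 85.7 ± 6.16 and 106 ± 13.1 CPM (SD, n = 3), and the log2 fold change was 0.30 ± 0.08 (SE, edgeR adjusted p = 0.0115). This call was lost without negative control replicate 1 (adjusted p = 0.0567) or replicate 3 (0.0549), within a range of 0.000149 to 0.0567 over the alternatives.

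The other 3 receptor genes lie close together on chromosome 11, all on the plus strand: Ifnar2 at 30613767 to 30668124, Ifnar1 at 30725790 to 30749979 and Ifngr2 at 30779733 to 30798005. Ifnar1 was at 79.9, 73.0 and 75.5 CPM in the control libraries and 69.4, 73.4 and 75.6 CPM with siRNA_ANK. Ifnar2 had the narrowest range, 44.0, 43.3 and 45.0 CPM against 44.8, 44.6 and 46.1 CPM. Ifngr2, the second chain of the interferon gamma receptor, was at 35.6, 34.6 and 32.3 CPM and at 34.8, 30.5 and 38.1 CPM. The groups overlapped for all 3, and the 95% intervals of the log2 fold change were -0.20 to 0.07 for Ifnar1, -0.10 to 0.17 for Ifnar2 and -0.17 to 0.20 for Ifngr2 (edgeR adjusted p = 0.442, 0.708 and 0.931). Il10rb, a receptor chain shared by interleukin 10 and interferon lambda, lies within the span of Ifnar2 on the same strand (30652096 to 30668074) and had 0 counts in every library; little RNA and reads not assigned to it cannot be told apart.

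**Figure D2:**
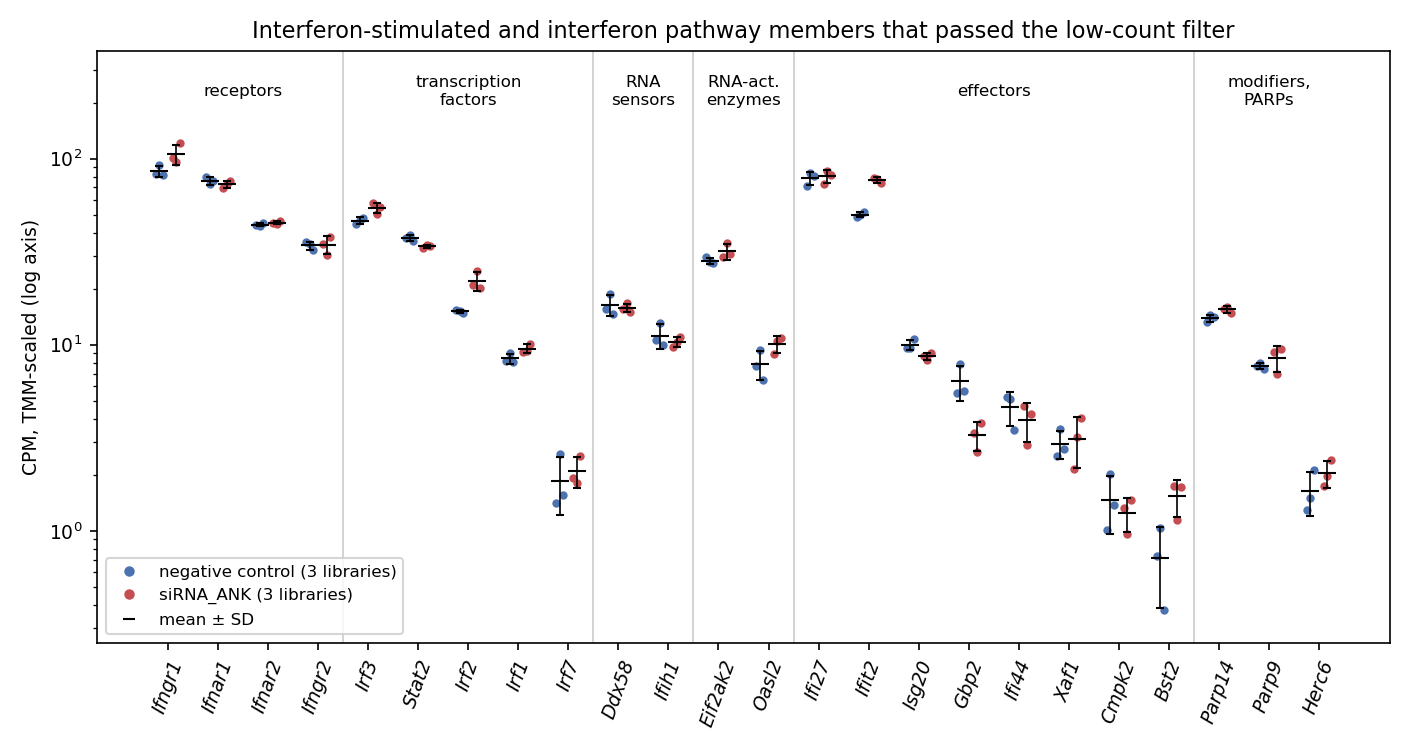
CPM on a log axis (y) of the 24 tested members (x, grouped by role) in the 3 negative control (blue) and 3 siRNA_ANK (red) libraries, with black bars for the mean and SD. Ifngr1, Ifnar1, Ifi27 and Ifit2 stand highest and Bst2 lowest in the controls, and Ifit2, Irf2 and Gbp2 show the clearest separation of the groups.

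Among the transcription factor genes, 2 of 5 tested rose and none fell, which is near the 40.1% of all genes called. Irf2, known as an antagonist of IRF1 at shared promoter elements (chromosome 16, 45439225 to 45550024, minus strand), was at 15.3, 15.1 and 14.9 CPM in the control libraries and 21.0, 24.8 and 20.1 CPM with siRNA_ANK. The siRNA_ANK libraries were all higher and also more spread (SD 0.219 and 2.48 CPM). The log2 fold change was 0.54 ± 0.10 (SE, edgeR adjusted p = 0.000584), and the call held under all 15 alternatives. Irf3, which is made without stimulation and is activated by phosphorylation after RNA sensing (chromosome 1, 95479821 to 95484935), was at 44.3, 46.6 and 48.2 CPM against 57.6, 50.4 and 55.0 CPM. The groups did not overlap, but the log2 fold change was small, 0.23 ± 0.07 (edgeR adjusted p = 0.0174). It was not called without negative control replicate 1 (adjusted p = 0.0950) or siRNA_ANK replicate 1 (0.0953), in a range of 0.00942 to 0.0953 over the alternatives. Irf3 overlaps Bcl2l12 on the opposite strand over part of its span.

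Irf1, an activator induced by interferon gamma, was at 8.21, 9.04 and 8.06 CPM in the control libraries and 9.17, 9.28 and 10.1 CPM with siRNA_ANK, without overlap but also without a call (edgeR adjusted p = 0.287). Irf7, the amplifier of type I interferon production, was low in both groups, at 1.41, 2.59 and 1.56 CPM and 1.92, 1.80 and 2.53 CPM. Stat2, the partner of IRF9 in the type I response, was at 37.3, 38.8 and 36.2 CPM against 33.1, 34.4 and 33.9 CPM. Stat2 was lower in each siRNA_ANK library than in any control, and the 95% interval of its log2 fold change was -0.30 to 0.0018 (edgeR adjusted p = 0.109). Irf9 itself had 2, 5 and 3 counts in the controls and 3, 7 and 3 in siRNA_ANK and was not tested. Its span (chromosome 15, 29095789 to 29101236) lies wholly inside that of Rnf31 on the same strand.

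Neither of the 2 RNA sensor genes tested was called. Ddx58, which encodes RIG-I, the sensor of short RNA with a triphosphate end, was at 15.6, 18.7 and 14.7 CPM in the control libraries and 15.6, 16.7 and 15.1 CPM with siRNA_ANK. Ifih1, which encodes MDA5, the sensor of long double-stranded RNA, was at 10.6, 13.1 and 9.93 CPM against 9.77, 10.3 and 11.0 CPM. The groups overlapped for both, negative control replicate 2 was the highest library for both, and the 95% intervals were -0.28 to 0.18 and -0.39 to 0.16 (edgeR adjusted p = 0.745 and 0.520). Dhx58, which encodes their regulator LGP2, had 6, 4 and 9 counts in the controls and 3, 4 and 8 in siRNA_ANK.

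Of the enzymes that double-stranded RNA activates and their relatives, Eif2ak2 and Oasl2 were tested and neither was called. Eif2ak2, which encodes PKR, the kinase that halts translation by phosphorylating eIF2 alpha, was at 29.4, 27.8 and 27.5 CPM in the control libraries and 29.4, 35.3 and 30.6 CPM with siRNA_ANK (edgeR adjusted p = 0.124). Oasl2, of the oligoadenylate synthetase family, was at 7.71, 9.33 and 6.50 CPM against 8.93, 10.5 and 10.8 CPM. Its groups overlapped through negative control replicate 2, and its edgeR adjusted p was 0.0693. Without that library it was called higher (log2 fold change 0.50, adjusted p = 0.0232), as also without both negative control replicate 2 and siRNA_ANK replicate 3 (0.44, adjusted p = 0.0236), in a range of 0.0232 to 0.259 over the alternatives. Oas1a had 0 counts in the controls and 2, 0 and 1 in siRNA_ANK, Oasl had 4 counts in the controls and 1 in siRNA_ANK, and Oas2 had 0 in every library. Oligoadenylate synthetase genes are a multigene family with similar sequences, so their counts are uncertain where reads match several copies.

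Among the effector genes, Ifit2 had the smallest adjusted p of all members. It encodes a protein of the tetratricopeptide repeat family that restricts viral translation (ENSRNOG00000036604, chromosome 1, 232102570 to 232108635, plus strand). It was at 48.5, 49.5 and 51.5 CPM in the control libraries and 78.7, 77.9 and 73.8 CPM with siRNA_ANK, so the groups lay far apart beside the spread within each. The means were 49.9 ± 1.55 and 76.8 ± 2.63 CPM (SD, n = 3), a log2 difference of 0.62 ± 0.06 (SE), and edgeR gave an adjusted p of 2.14e-06. Under the alternatives the log2 fold change stayed between 0.60 and 0.65 and the call held each time.

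The neighbours of Ifit2 on chromosome 1 stood at much lower levels. Ifit3, at 232114166 to 232119307 on the plus strand, had 8, 0 and 1 counts in the controls and 0, 5 and 1 in siRNA_ANK. Per kilobase of gene length, the control mean was 14.6 CPM for Ifit2 and 0.0838 CPM for Ifit3. Ifit1bl, at 232122562 to 232167518 on the minus strand, is not among the 40 symbols and was singled out after its values were seen. It was at 0.956, 1.15 and 1.06 CPM in the control libraries and 2.28, 2.34 and 2.47 CPM with siRNA_ANK (log2 fold change 1.15 ± 0.26, edgeR adjusted p = 0.00279).

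Gbp2, one of the guanylate-binding GTPases induced mainly by interferon gamma (chromosome 2, 231332284 to 231348571, plus strand), was the only tested member called lower. It was at 5.51, 7.89 and 5.62 CPM in the control libraries and 3.36, 2.64 and 3.80 CPM with siRNA_ANK, without overlap. Negative control replicate 2 was the highest of the 6 libraries. The log2 fold change was -0.96 ± 0.20 (SE, edgeR adjusted p = 0.00168), and it was called under each of the 14 alternatives in which it was tested; the filter at a mean of 5 CPM left it out. Its promoter stretch shown above holds the response element core, as that of Bst2 does.

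Bst2, which encodes tetherin, a membrane protein that holds budding virus at the cell surface (chromosome 16, 18217407 to 18220979, minus strand), rested on 13, 18 and 6 counts in the controls and 29, 19 and 27 in siRNA_ANK. In CPM these were 0.731, 1.04 and 0.375 against 1.74, 1.14 and 1.71, and the closest values of the groups nearly touched. The log2 fold change was 1.07 ± 0.38 (SE, edgeR adjusted p = 0.0336), with a 95% interval of 0.27 to 1.88. The call was lost with DESeq2 (adjusted p = 0.0590) and on leaving out any of 4 libraries: negative control replicate 1 (0.0860), negative control replicate 3 (0.136), siRNA_ANK replicate 1 (0.115) and siRNA_ANK replicate 3 (0.0630), in a range of 0.0195 to 0.136.

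The remaining 5 tested effectors were not called. Ifi27, which encodes a small mitochondrial membrane protein, had the highest level per kilobase of the tested members, 88.2 ± 7.51 CPM per kilobase in the controls and 90.2 ± 7.40 in siRNA_ANK (SD, n = 3). It was at 70.9, 83.5 and 81.0 CPM in the control libraries and 73.0, 85.8 and 81.7 CPM with siRNA_ANK, overlapping throughout (log2 fold change 95% interval -0.13 to 0.19). Its long span on chromosome 6 (122590472 to 122779294) overlaps Ppp4r4 on the same strand and Serpina10 on the opposite strand, and holds the related gene Ifi27l2b on the opposite strand (122598872 to 122600360). Ifi27l2b, also singled out after its values were seen, fell from 53.4, 44.3 and 48.4 CPM to 18.7, 15.5 and 27.0 CPM (log2 fold change -1.26 ± 0.19, edgeR adjusted p = 0.00146). Not given in the sources used here are the strand setting of the counting and its treatment of overlapping genes, so how reads were divided among these genes is uncertain.

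Isg20, which encodes an RNA-degrading exonuclease, was at 9.62, 9.62 and 10.7 CPM in the control libraries and 8.69, 8.27 and 9.05 CPM with siRNA_ANK. Each siRNA_ANK library was below every control, yet without a call (edgeR adjusted p = 0.206), and its span overlaps Aen on the same strand. Ifi44, an interferon-induced gene whose product limits viral replication, was at 5.23, 5.12 and 3.50 CPM against 4.68, 2.88 and 4.24 CPM. Xaf1, which encodes an antagonist of the apoptosis inhibitor XIAP, was at 2.53, 3.51 and 2.75 CPM and 2.16, 3.17 and 4.05 CPM. Cmpk2, a mitochondrial nucleotide kinase gene next to Rsad2, was at 1.01, 2.02 and 1.37 CPM and 1.32, 0.958 and 1.46 CPM. The groups overlapped for Ifi44, Xaf1 and Cmpk2.

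The ubiquitin-like modifier genes and ADP-ribosyltransferases gave no call. Parp14, which encodes a mono-ADP-ribosyltransferase, was at 13.2, 14.4 and 14.1 CPM in the control libraries and 15.6, 15.9 and 14.8 CPM with siRNA_ANK, without overlap (log2 fold change 0.16 ± 0.10, edgeR adjusted p = 0.220). Parp9, whose product works with the ubiquitin ligase DTX3L, was at 7.71, 8.0 and 7.43 CPM against 9.11, 6.95 and 9.50 CPM, and siRNA_ANK replicate 2 was the lowest of the 6. Its start overlaps Dtx3l on the opposite strand. Herc6, which encodes the main ligase that attaches ISG15 in mice, was at 1.29, 1.5 and 2.12 CPM and 1.74, 1.98 and 2.41 CPM, with overlapping groups.

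The 13 members that did not pass the filter summed to 67 counts in the controls and 81 in siRNA_ANK over 3 libraries each. Mx1, Oas2 and Isg15 had 0 counts in all 6 libraries. Mx2, a dynamin-like GTPase gene that restricts viruses, had 0, 1 and 0 counts in the controls and 8, 1 and 1 in siRNA_ANK, so most of them came from siRNA_ANK replicate 1. Rsad2, which encodes viperin, an enzyme that makes a chain-terminating nucleotide, had 5, 2 and 0 counts against 0, 3 and 3. Usp18, which encodes the protease that removes ISG15 and dampens receptor signalling, had 6, 2 and 3 counts against 3, 10 and 7. Ifi44l had 4 counts in the controls and 6 in siRNA_ANK, and Rtp4, a receptor transporter gene, had 2 and 1. At this depth no difference was detectable in these genes.

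For Isg15, which encodes the ubiquitin-like modifier of the pathway, a count of 0 has a further limit. Its span (chromosome 5, 166784148 to 166785435, minus strand) lies wholly inside that of Agrn on the same strand. Of 589 protein-coding genes that lie in this way inside another gene, 49.9% had 0 counts in every library, against 29.4% of the 22507 others. For Isg15 and Irf9, little or no RNA cannot be told apart from reads that were not assigned to the inner gene. Rtp4 overlaps Masp1 on the opposite strand. The 10 other untested members, Mx1, Mx2, Oas1a, Oas2, Oasl, Ifit3, Rsad2, Ifi44l, Usp18 and Dhx58, overlap no other gene in the files.

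**Figure D3:**
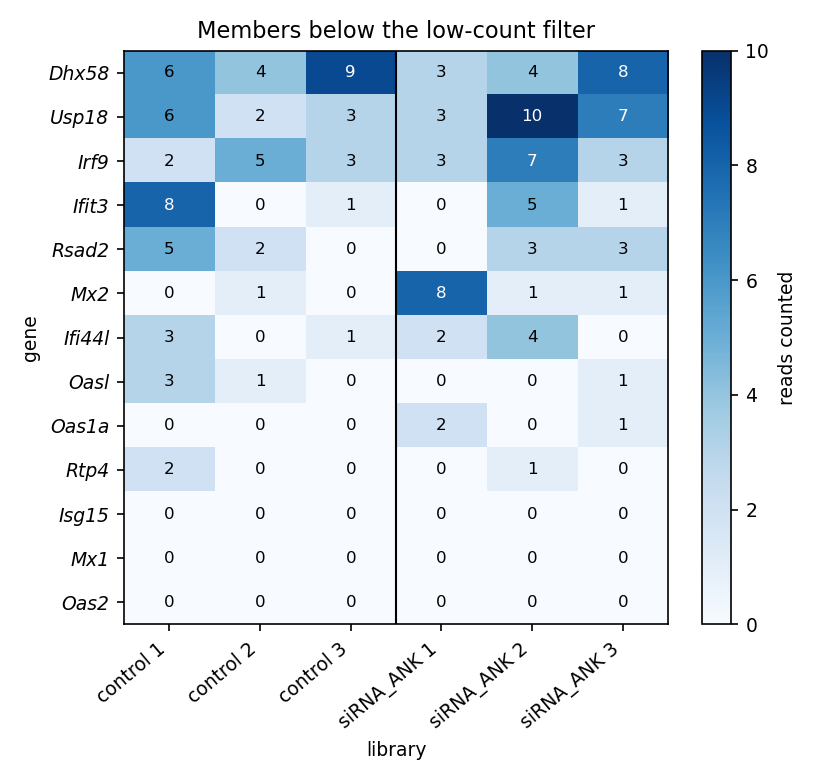
Reads counted (colour and printed number) for the 13 members below the low-count filter (rows) in the 3 negative control and 3 siRNA_ANK libraries (columns). No cell exceeds 10 counts, and Isg15, Mx1 and Oas2 are at 0 in every library.

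Few or no reads were counted for the interferon genes that have a row. Of the 11 ligand genes with a row, Ifna1, Ifna4, Ifnb1, Ifng, Ifnk, Ifnl1 and Ifnl3 had 0 counts in every library, and Ifne had 36 counts in the controls and 23 in siRNA_ANK. Ifna2, Ifna5 and Ifna11 have no row under those names. How reads matching several genes were treated is not given, so 0 counts of the Ifna genes need not mean absence. The 2 ligand genes that could be tested, Il6 and Lif, encode cytokines of another family that signal through STAT3, and both rose. Il6 was at 6.92, 6.97 and 6.25 CPM in the control libraries and 11.3, 10.2 and 14.6 CPM with siRNA_ANK (log2 fold change 0.84 ± 0.15, edgeR adjusted p = 0.000440). Lif was at 25.3, 29.7 and 20.2 CPM against 40.9, 32.7 and 53.7 CPM (adjusted p = 0.0320 in edgeR). The Lif call was lost with no filter beyond 1 count (adjusted p = 0.113), with the replicate number as a block (0.167) and on leaving out negative control replicate 1 (0.0846), negative control replicate 3 (0.0613) or siRNA_ANK replicate 1 (0.0608), in a range of 6.36e-05 to 0.167.

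In the list of receptor signalling and feedback, 8 of 21 tested genes rose and 3 fell, or 52.4% called, where 40.1% of all genes were called, 19.9% higher and 20.2% lower. Stat4, a transducer of interleukin 12 and type I interferon signals, rose 1.66-fold from 44.6 ± 1.49 to 73.9 ± 6.10 CPM (SD, n = 3, edgeR adjusted p = 2.07e-06). Socs3, a feedback inhibitor of STAT3 signalling, rose 1.85-fold from 7.32 ± 0.912 to 13.5 ± 1.93 CPM, and Irf2bpl, named for its likeness to a partner of IRF2, rose 1.54-fold. Pias3, an inhibitor of STAT3, fell 1.35-fold from 62.1 ± 1.67 to 46.1 ± 1.5 CPM. Jak1, the kinase that serves both interferon receptors, and Irf8, a factor best known from myeloid cells, were singled out after their values were seen. Jak1 rose from 231 ± 1.25 to 284 ± 5.07 CPM and Irf8 from 3.54 ± 0.269 to 5.91 ± 0.769 CPM (edgeR adjusted p = 0.000290 and 0.00369). The other Janus kinase genes of the list, Tyk2 and Jak2, also singled out afterwards, did not rise with Jak1. Tyk2 was called lower, from 22.2 ± 2.45 to 18.5 ± 0.292 CPM (edgeR adjusted p = 0.0389). This call lay near the threshold and was not examined under the alternatives. Jak2 was not called (38.0 ± 1.14 and 34.4 ± 5.38 CPM, edgeR adjusted p = 0.260).

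Of the nucleic acid sensors and adaptors, 4 of 23 tested rose and 3 fell, or 30.4% called, against the same 40.1% of all genes. Tbk1, the kinase of IRF3, fell 1.31-fold from 31.1 ± 2.82 to 23.8 ± 1.70 CPM (SD, n = 3, edgeR adjusted p = 0.00313), and Tank, an adaptor of that kinase, rose 1.30-fold. Tlr4, the receptor for bacterial lipopolysaccharide, fell from 21.1 ± 1.56 to 15.8 ± 2.83 CPM (edgeR adjusted p = 0.0143), a call that was lost without negative control replicate 3 (adjusted p = 0.0692) or siRNA_ANK replicate 2 (0.0589), in a range of 0.000682 to 0.0692. Cd14, the co-receptor of TLR4, singled out after its values were seen, fell from 25.2 ± 1.53 to 12.0 ± 2.06 CPM (edgeR adjusted p = 5.03e-06).

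Among other interferon-induced genes, 10 of 43 tested rose and 9 fell, or 44.2% called (40.1% of all genes), with a median log2 fold change of 0.13. Slfn2, a schlafen gene that regulates cell quiescence in mice, fell 2.47-fold from 46.1 ± 4.46 to 18.6 ± 2.46 CPM (SD, n = 3, edgeR adjusted p = 2.49e-07). Cd274, which encodes the checkpoint ligand PD-L1 and is induced by interferon gamma, was at 3.32, 3.92 and 2.75 CPM in the control libraries and 1.5, 1.14 and 0.950 CPM with siRNA_ANK, 2.78-fold lower (edgeR adjusted p = 0.000498). Lap3, an aminopeptidase gene, fell 1.31-fold, and Lgals3bp, which encodes a secreted galectin-binding glycoprotein, rose 1.49-fold from 62.9 ± 4.33 to 93.8 ± 5.36 CPM. Over all 4 lists, 24 of 89 tested genes were higher and 15 lower, or 43.8% called, against the 40.1% of all genes. Without negative control replicate 3 the number lower was 9.

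**Figure D4:**
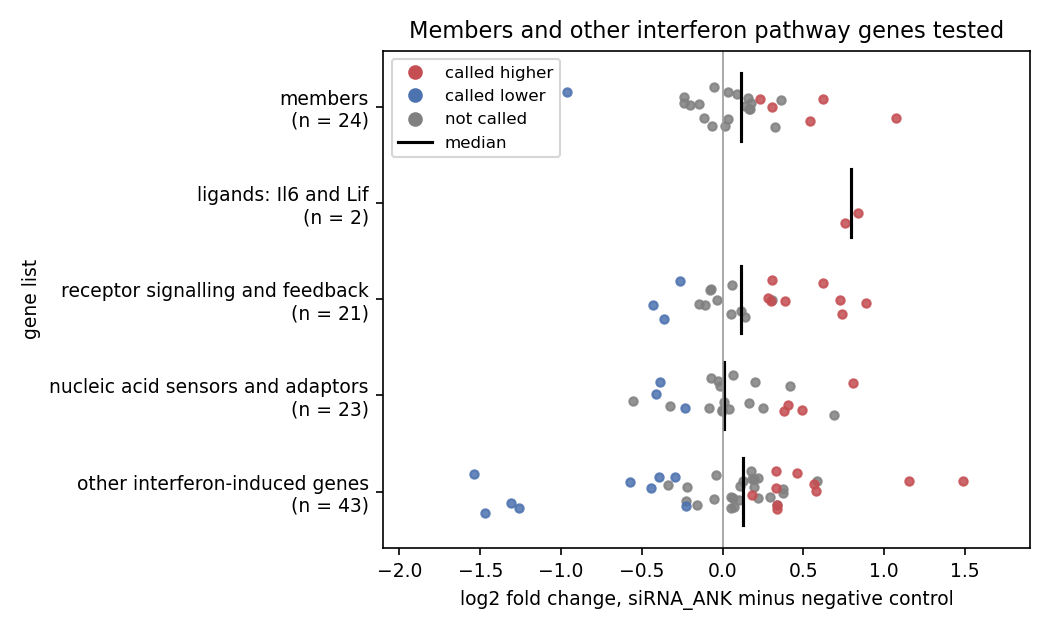
Log2 fold change (x axis, siRNA_ANK minus negative control) of each tested gene in 5 groups (y axis): the 24 members, the 2 tested ligand genes Il6 and Lif, receptor signalling and feedback, sensors and adaptors, and other interferon-induced genes. Points are genes, red called higher, blue called lower and grey not called, and black bars are medians, which lie between 0.01 and 0.13 except for the 2 ligand genes (0.80).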

How the data were processed

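The 6 libraries hold RNA of cultured rat smooth muscle cells, 3 per group. The authors deposited raw counts of reads for each gene, 1 file per library. Build mRatBN7.2, DESeq2 and featureCounts 1.5.0-p3 are named per the submitters' processing notes. Not given in the sources used here are the aligner, the strand setting and how reads matching several genes were treated. The 385 rows without a gene symbol held 0.306% to 0.339% of counts and were kept as loci.

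Members were matched by symbol. The members and gene lists were chosen with earlier results of these data known. Of 153 other pathway symbols, 131 matched, on 135 rows, and 89 rows were tested; the other symbols were not analysed here. Named from these lists were up to 4 called genes by smallest adjusted p; others are said to have been singled out afterwards. One gene that this rule names is not reported here.

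Tests used edgeR 4.0.16 (R 4.3.3): filterByExpr (minimum count 10, minimum total 15), TMM scaling, robust quasi-likelihood test, two-sided, Benjamini-Hochberg adjustment over all 13016 genes tested, threshold 0.05. The SE is the size of the log2 fold change over the square root of F. Fold changes in the text are ratios of mean CPM. Replicates differed beyond sampling noise (chi-square per degree of freedom 2.83 to 12.3). The fit was tested on simulated data, where a larger share of calls was false than the threshold of 0.05 allows. Far fewer genes changed in the simulation than were called here, and how far its share of false calls carries over was not tested. Alternatives were DESeq2 1.42.0, voom of limma 3.58.1, other scalings and filters, a replicate block, and leaving out libraries.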

Additional observations from a re-analysis of the deposited data

How the results depend on the processing

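Over 15 alternatives, the number of all genes called higher ranged from 1991 to 3007 and lower from 2062 to 3049, and Ankh was called lower each time. The number of members called higher ranged from 2 to 6 when 1 library was left out and from 4 to 6 otherwise. The number lower was 1 except under the 5 CPM filter, where it was 0 because Gbp2 was not among the 17 members tested. For the other pathway genes the number lower ranged from 9 to 17 when 1 library was left out. No scaling moved the median log2 fold change of all genes by over 0.1 or changed a call among the members.

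Members that were not called and changed sign when 1 library was left out were Ifngr2 (log2 fold change -0.067 to 0.090), Irf7 (-0.0091 to 0.48), Ddx58 (-0.12 to 0.054), Ifih1 (-0.19 to 0.012), Cmpk2 (-0.45 to 0.062), Ifi27 (-0.039 to 0.094) and Xaf1 (-0.14 to 0.30). Without both negative control replicate 2 and siRNA_ANK replicate 3, Ifngr2 was at -0.058 and Ddx58 at 0.086. The cause was not tested.

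The labels number the replicates in both groups. Deviations of same-numbered libraries from their group means correlated at -0.03, 0.06 and 0.04, and those of differently numbered libraries at -0.09 to 0.05. With 3 libraries per group, these values cannot tell if same-numbered libraries shared an animal, a culture or a batch. With the replicate block, 5 members were higher and 1 lower, and 2579 of all genes were higher. Depth limits the 13 members below the filter, where 1 count is worth 0.0563 to 0.0633 CPM.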
